A study of Mus musculus with 2 samples.

Results

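Occupancy of brown adipocyte chromatin by TRα1, a nuclear receptor for thyroid hormone, was examined around 10 genes that control how a cell takes up glucose and what it does with it. They encode the glucose transporters (*Slc2a1*, *Slc2a4*), hexokinases (*Hk1*, *Hk2*), an enzyme that sets the pace of glycolysis (*Pfkfb3*), the kinases and a phosphatase that switch pyruvate dehydrogenase off and on (*Pdk1*, *Pdk2*, *Pdk4*, *Pdp2*) and a subunit of lactate dehydrogenase (*Ldhb*). The rule names the genes and uses no measured value, but it was written with earlier results of these data known. All 10 were found among the 21938 protein-coding genes annotated on the mouse genome GRCm38. A TR binding site (TRBS) is a peak of the deposited list, and it was linked to a gene when its summit, where most fragments pile up, lay within 30 kb of the transcription start site (TSS). Of the 5107 TRBS in the list, 13 lay within 30 kb of the TSS of one of these genes and 22 within 100 kb.

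Brown adipose tissue was taken from male C57BL/6J mice aged 8 to 12 weeks that carried TRα1 with a GS tag, expressed only in brown adipocytes. For 2 weeks all mice ate food with propylthiouracil, an inhibitor of thyroid hormone synthesis, and they were then given thyroid hormone over 24 h. Chromatin from this tissue gave 1 ChIP library, precipitated per the labels with an antibody for TRα, and 1 input library, made without precipitation. Both libraries share genotype and treatment, so the list describes where TRα1 was found in the presence of hormone, and hypothyroid tissue without hormone was not analysed here. Whether the antibody recognised the tag or the receptor itself is not given in the sources used here. With 1 library of each kind there was no replicate, no condition was compared with another and no replicate error could be given. The list holds neither TRβ, the other thyroid hormone receptor, nor transcript levels, so it shows occupancy near a gene and not a change in its expression.

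Glucose enters the adipocyte through GLUT1, the product of *Slc2a1*, and through GLUT4, the insulin-responsive transporter encoded by *Slc2a4*. Hexokinases trap it as glucose 6-phosphate. PFKFB3 makes fructose 2,6-bisphosphate, the main allosteric activator of phosphofructokinase. Pyruvate dehydrogenase then decides whether pyruvate is burnt in mitochondria: PDK1, PDK2 and PDK4 inactivate it by phosphorylation, and PDP2 removes the phosphate. Brown fat is known for taking up glucose when it makes heat, and for switching between glucose and fatty acids as fuel. TR binds DNA mostly as a heterodimer with RXR on a DR4 element, which is a direct repeat of the half-site AGGTCA with 4 bases between the copies.

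Matches to this consensus were found in 8 of the 22 TRBS within 100 kb, against 32.0% of all TRBS in the list. With a score of at least 60 they were found in 7 of 19, against 34.4% of all TRBS at that limit. Of the 8 matches, 6 are shown first, because the DR4 is the element the receptor is known for. The other 2 are given below with the far *Hk2* TRBS. A match does not show that the receptor touched these bases. The search allowed at most 2 mismatches over the 12 bases of both half-sites, on both strands. Capitals mark half-site bases that match the consensus, lower case marks mismatches and the spacer, and all positions are on GRCm38.
Hk2, 3.16 kb downstream of the TSS, chr6:82771312-82771327, minus strand: AGaTCActtaAGGTtA
Hk2, 23.3 kb downstream, chr6:82751105-82751120, minus strand: AaGTCAtctgAGGcCA
Pfkfb3, 32.2 kb downstream, chr2:11521428-11521443, plus strand: AGGcCAccctAGGTCA
Pdk4, 11.7 kb upstream, chr6:5507982-5507997, minus strand: AGGgCAggctAGGaCA
Pdk4, 1.00 kb upstream, chr6:5497206-5497221, minus strand: AGGTCAatattGGgCA
Pdp2, 37000 bp downstream, chr8:104628464-104628479, plus strand: AGGTCAtggcAGGaCt
Substitutions are written as the consensus base, the position counted from 1 at the 5′ end of the 16-base element, and the base found. The element in the downstream *Pfkfb3* TRBS carries 1, T4C. Those near *Hk2* carry G3A and C15T, and G2A and T14C. Those near *Pdk4* carry T4G and T14A in the far TRBS, and A11T and T14G in the near one. That downstream of *Pdp2* carries T14A and A16T.

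The 13 TRBS within 30 kb were spread over 5 of the 10 genes: *Slc2a4*, *Hk2*, *Pfkfb3*, *Pdk4* and *Pdp2*. Across all protein-coding genes, 16.7% had a TRBS at this distance. *Slc2a4*, *Hk2* and *Pdk4* had more than 1, as did 4.55% of all genes, and *Hk2* and *Pdk4* had 4 each, a number reached by 0.693% of all genes. The other 5 genes, *Slc2a1*, *Hk1*, *Pdk1*, *Pdk2* and *Ldhb*, had none. Within 100 kb the count rose to 7 genes, since *Slc2a1* and *Pdk2* gained a TRBS, against 38.3% of all genes. These shares are a description, since the genes were picked with earlier results of the list known.

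**Figure D1:**
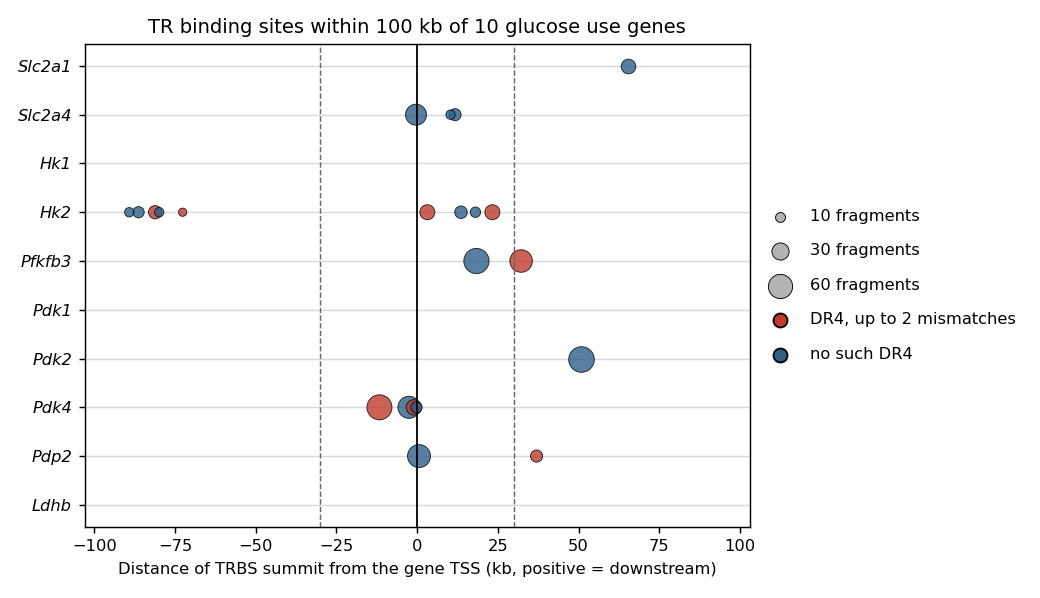
Position of the 22 TRBS within 100 kb of the 10 genes (1 row per gene), as distance of the summit from the TSS in kb, with downstream to the right; the area of a circle grows with the ChIP fragments at the summit, red circles hold a DR4 with at most 2 mismatches, and dashed lines mark 30 kb. *Hk2* has a group of 4 TRBS inside the gene and a group of 5 far upstream, *Pdk4* has 4 TRBS upstream of its TSS, and the rows of *Hk1*, *Pdk1* and *Ldhb* are empty.

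The strength of a TRBS is given as the number of ChIP fragments over its summit, worked out from the deposited fold and p-value, and as the deposited fold over the local input background. Intervals are exact 95% Poisson intervals. They cover counting error only, since the fragments carry no molecular identifiers and several may stem from 1 molecule. The median TRBS of the whole list had 17 fragments (quartiles 11 and 27) and a fold of 9.83, on a background of 0.672 fragments. The 13 TRBS near the 10 genes had a median of 23 fragments (range 9 to 65) and a median fold of 16.0 (range 6.31 to 38.5). By fragments, 5 of the 13 were in the top 10% of the list, over 44, and the other 8 had 24 or fewer. By fold, 3 of those 5 were in the top 10%, over 24.4, and the *Slc2a4* promoter (18.9) and *Pfkfb3* (21.1) were not. The line between them is not sharp, since the interval of the *Slc2a4* promoter overlaps those of the largest of the 8.

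**Figure D2:**
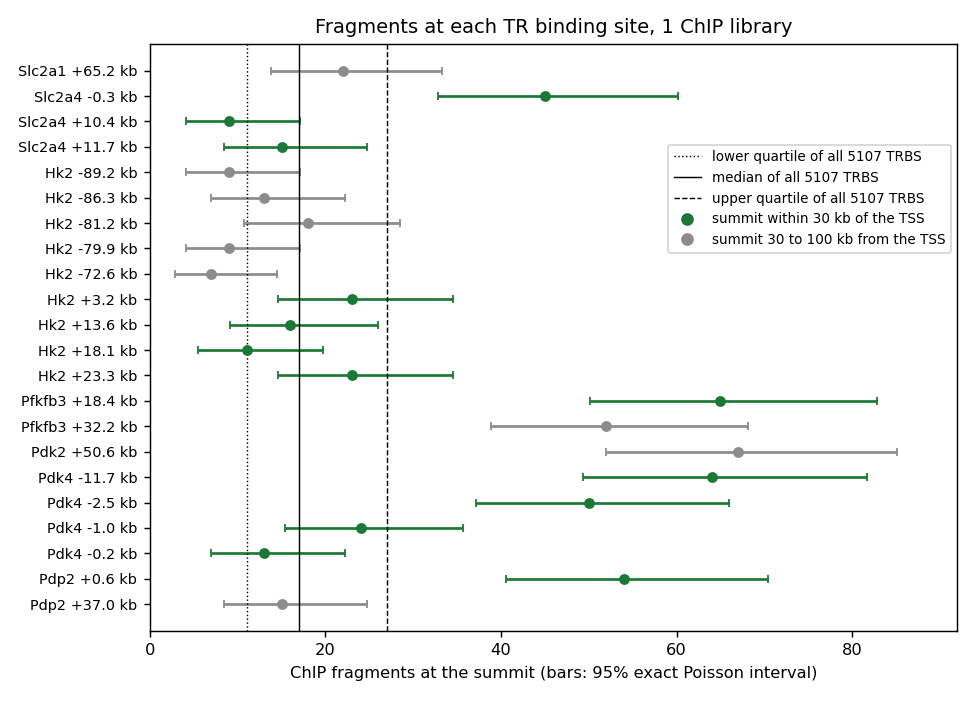
ChIP fragments at the summit of each of the 22 TRBS (x axis, number of fragments in the 1 ChIP library), with exact 95% Poisson intervals as bars and the quartiles of all 5107 TRBS as vertical lines; green marks summits within 30 kb and grey those from 30 to 100 kb. Within 30 kb, the TRBS at the *Slc2a4* promoter, in *Pfkfb3*, at the *Pdp2* TSS and the far pair at *Pdk4* lie wholly right of the upper quartile, intervals included. Beyond 30 kb, those of *Pfkfb3* at 32.2 kb and *Pdk2* at 50.6 kb do so too. All 9 TRBS of *Hk2* lie at 23 fragments or fewer.

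The 5 TRBS with the most fragments are shown by the 121 bases around each summit, as these are the bases most covered by receptor-bound fragments. All are on the plus strand of GRCm38. Capitals mark both half-sites of the DR4 shown above, mismatches included and read here from the other strand, or else each exact half-site (AGGTCA or GGGTCA, on either strand).
Slc2a4, 337 bp upstream of the TSS, chr11:69948465-69948585, plus strand: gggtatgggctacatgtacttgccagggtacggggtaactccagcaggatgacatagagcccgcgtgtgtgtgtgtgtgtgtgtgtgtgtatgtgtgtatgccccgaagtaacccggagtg
Pfkfb3, 18376 bp downstream, chr2:11535641-11535761, plus strand: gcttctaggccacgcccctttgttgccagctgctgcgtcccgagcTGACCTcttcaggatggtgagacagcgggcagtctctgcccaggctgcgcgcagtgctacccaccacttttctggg
Pdk4, 11667 bp upstream, chr6:5507916-5508036, plus strand: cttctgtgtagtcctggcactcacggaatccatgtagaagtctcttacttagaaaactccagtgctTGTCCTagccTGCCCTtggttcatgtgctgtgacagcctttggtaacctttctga
Pdk4, 2522 bp upstream, chr6:5498771-5498891, plus strand: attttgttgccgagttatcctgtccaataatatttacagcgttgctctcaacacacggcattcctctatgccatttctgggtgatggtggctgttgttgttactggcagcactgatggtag
Pdp2, 594 bp downstream, chr8:104591985-104592105, plus strand: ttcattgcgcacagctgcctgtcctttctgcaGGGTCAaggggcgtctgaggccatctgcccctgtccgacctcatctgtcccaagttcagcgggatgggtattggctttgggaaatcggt
A DR4 with at most 2 mismatches stands at 1 summit, that 11667 bp upstream of *Pdk4*. The *Pfkfb3* and *Pdp2* windows each hold 1 exact half-site, and the *Slc2a4* window and the nearer *Pdk4* window hold none.

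Both glucose transporters were examined first. *Slc2a4* (chr11:69942539-69948188, minus strand) had 3 TRBS within 30 kb, of which 1 was at its own promoter. The promoter TRBS (chr11:69948203-69948862) had its summit 337 bp upstream of the TSS, with 45 fragments (95% interval 32.8 to 60.2) and a fold of 18.9. Its background of 1.43 fragments was above the list median, and neither a DR4 with up to 3 mismatches nor an exact half-site was found over its whole width. The other pair lay past the end of *Slc2a4*, in the neighbouring gene *Ybx2*, which encodes a nucleic acid binding protein of the Y-box family and whose TSS was the nearest one for both. One was in an intron of *Ybx2*, 10369 bp downstream of the *Slc2a4* TSS, with 9 fragments (4.12 to 17.1) and a fold of 6.65. The other was in a coding exon of *Ybx2*, 11743 bp downstream, with 15 fragments (8.40 to 24.7) and a fold of 6.34. Both were below the median of the list, and their intervals lie wholly below that of the promoter TRBS. The surroundings are dense in genes, with 18 protein-coding TSS within 100 kb, so distance alone does not tie the weaker pair to *Slc2a4*.

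*Slc2a1* (chr4:119108711-119137983, plus strand) had no TRBS within 30 kb. The only one within 100 kb (chr4:119173738-119174204) was 65227 bp downstream of the TSS, with 22 fragments (13.8 to 33.3) and a fold of 12.0. It lay in an intron of *Zfp691*, 257 bp from the TSS of that gene, and past the end of *Slc2a1*. The insulin-responsive transporter thus had a promoter TRBS in this list and the basal transporter did not, a comparison of 2 genes in 1 library that was not tested.

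The hexokinases differed in the same descriptive sense. *Hk2* (chr6:82725025-82774454, minus strand), the isoform of insulin-sensitive tissues, had 4 TRBS within 30 kb, all inside the gene. The first, in intron 1 at 3164 bp downstream of the TSS (chr6:82771092-82771561), had 23 fragments (14.6 to 34.5) and a fold of 16.0. The second, in the same intron at 13596 bp (chr6:82760711-82761022), had 16 fragments (9.15 to 26.0) and a fold of 10.6. The remaining 2 were in intron 2. That at 18073 bp (chr6:82756200-82756534) had 11 fragments (5.49 to 19.7) and a fold of 8.21. That at 23322 bp (chr6:82750870-82751387) had 23 fragments and a fold of 16.7. All 4 intervals overlap, so the order of strength among them is not resolved at this depth.

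The outer members of this row, at 3164 and 23322 bp, each held 1 of the DR4 elements shown above, 29.5 and 19.5 bp from the summit. The inner pair held none with fewer than 3 mismatches. The 121 bases around both summits are printed here because the element and the summit lie together, with both half-sites of the DR4 in capitals, mismatches included, as read on the plus strand.
Hk2, 3164 bp downstream, chr6:82771230-82771350, plus strand: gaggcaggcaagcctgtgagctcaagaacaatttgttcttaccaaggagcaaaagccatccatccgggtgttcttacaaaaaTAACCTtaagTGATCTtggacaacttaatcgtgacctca
Hk2, 23322 bp downstream, chr6:82751072-82751192, plus strand: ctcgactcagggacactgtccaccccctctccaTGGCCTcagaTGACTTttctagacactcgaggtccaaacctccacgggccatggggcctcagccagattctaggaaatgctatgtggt
Each of these elements has 1 mismatch in either half-site.

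A second group of 5 TRBS lay upstream of *Hk2* in intergenic sequence, from 72637 to 89172 bp away, and 75801 bp without a summit separate them from the first intronic TRBS. With them *Hk2* had 9 TRBS within 100 kb, a number reached by 0.191% of all genes. Of the upstream 5, 3 had a score under 60, the lower limit of the study's methods, which left 6 TRBS for *Hk2* (2 of them upstream), a number reached by 0.921% of all genes at that limit. The strongest of the 5, 81157 bp upstream (chr6:82855433-82855876), had 18 fragments (10.7 to 28.4) and a fold of 13.3. The nearest, 72637 bp upstream (chr6:82846859-82847172), had 7 fragments (2.81 to 14.4), a fold of 5.59 and a score of 44, under that limit. The other 3 had 9 to 13 fragments, and the farthest pair of the 5 was closer to the TSS of *Sema4f* than to that of *Hk2*. By fragments, 4 of the 5 were below the list median, and the strongest was close to it by fragments and above it by fold. Both the strongest and the nearest held a DR4 with 2 mismatches, 233.5 and 58.5 bp from the summit.
Hk2, 81157 bp upstream, chr6:82855837-82855852, plus strand: AGGcCctagaAGGTCA
Hk2, 72637 bp upstream, chr6:82847025-82847040, plus strand: AGGTCAcaccAcGcCA
In both, all mismatches fall in 1 half-site (T4C and A6C, and G12C and T14C), and the other half-site is an exact AGGTCA.

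*Hk1* (chr10:62268855-62379908, minus strand), the hexokinase of most tissues, had no TRBS within 100 kb. The nearest, of 18 fragments and a fold of 12.0, was 180751 bp downstream and beyond the end of the gene. A count of 0 says only that no peak was called. The weakest TRBS of the list had 5 fragments, a number called at the lowest background. Where the background is higher, more fragments are needed for a call. The level of occupancy that could be missed at *Hk1* is therefore not known.

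*Pfkfb3* (chr2:11471433-11554077, minus strand) had 1 TRBS within 30 kb, and it was the strongest of the 13 by fragments. Its summit lay 18376 bp downstream of the TSS (chr2:11535405-11536039), with 65 fragments (50.2 to 82.8) and a fold of 21.1. In the whole list, 96.1% of TRBS had fewer fragments. The background there, 2.13 fragments, was the highest of the 13, which lowers the fold relative to the fragments. A second TRBS stood just outside the 30 kb limit, at 32212 bp (chr2:11521406-11522223), with 52 fragments (38.8 to 68.2). Its background was 0.521 fragments, and its fold was 34.8. The order of these neighbours therefore turned with the measure, since the first had more fragments and the second the higher fold.

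Both lay in intron 1 of a long annotated transcript, 13836 bp apart. The gene has 13 annotated transcript starts, and the principal coding transcript begins 51976 bp inside the gene. Measured from that start, both TRBS were upstream, by 33600 and 19764 bp. When any transcript start was allowed, *Pfkfb3* had 2 TRBS within 30 kb. The second TRBS held the DR4 with 1 mismatch, but this element was 429.5 bp from the summit, close to the edge of the peak. The bases around the summit itself hold a pair of half-sites on the same strand.
Pfkfb3, 32212 bp downstream, chr2:11521805-11521925, plus strand: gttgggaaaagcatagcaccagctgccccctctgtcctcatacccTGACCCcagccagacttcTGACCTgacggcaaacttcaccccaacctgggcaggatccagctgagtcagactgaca
Here capitals mark the exact half-sites, TGACCC and TGACCT as read on the plus strand, which are the reverse complements of GGGTCA and AGGTCA.

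*Pdk4* (chr6:5483351-5496309, minus strand) encodes the pyruvate dehydrogenase kinase that rises in fasting and spares glucose, and it had the most fragments of any of the 10 genes within 30 kb, 151 summed over 4 TRBS. All 4 lay upstream of the TSS, and no TSS of another protein-coding gene was within 100 kb. The farthest, 11667 bp upstream (chr6:5507702-5508319), had 64 fragments (49.3 to 81.7) and a fold of 35.3. The next, 2522 bp upstream (chr6:5498478-5499344), had 50 fragments (37.1 to 65.9) and a fold of 34.9. The third from the far end, 1003 bp upstream (chr6:5497078-5497513), had 24 fragments (15.4 to 35.7) and a fold of 15.7. The promoter TRBS, 191 bp upstream (chr6:5496285-5496581), had 13 fragments (6.92 to 22.2) and a fold of 6.31, the lowest fold of the 13.

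Fragments thus increased with distance from the *Pdk4* TSS. The intervals of the far pair overlap each other, as do those of the near pair, but both far intervals lie above both near ones. The 3 TRBS closest to the TSS were 812 and 1519 bp apart, and fragments of neighbouring summits can come from the same stretch of chromatin. DR4 elements with 2 mismatches stood 13.5 bp from the summit of the farthest TRBS and 98.5 bp from that of the TRBS at 1003 bp. The TRBS at 2522 bp had no better element than 3 mismatches, 73.5 bp from its summit, and the promoter TRBS had none with up to 3.

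*Pdp2* (chr8:104591451-104599026, plus strand), the phosphatase that opposes the kinases, had 1 TRBS within 30 kb and it had the highest fold of the 13. The peak (chr8:104591239-104592452) was 1214 bp wide and spanned the TSS, with its summit 594 bp downstream in the intron of this gene of 2 exons. It had 54 fragments (40.6 to 70.5) and a fold of 38.5, and its background, 0.430 fragments, was the lowest level in the list. Its best DR4 had 3 mismatches and was 4.5 bp from the summit. It also held a DR1, an exact half-site, an E-box and a C/EBP palindrome, more of the motifs searched than any other of the 13. It was also the widest of the 13, whose median width was 470 bp, and a wider peak has more room for a match. A weaker TRBS lay 37000 bp downstream of the TSS, at *Rrad*, with 15 fragments (8.40 to 24.7) and a fold of 11.2. The DR4 with 2 mismatches shown above was 20.5 bp from its summit.

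*Pdk1* and *Pdk2* encode kinases with the same substrate as PDK4, and neither had a TRBS within 30 kb. *Pdk2* (chr11:95026258-95041354, minus strand) had 1 within 100 kb, 50622 bp downstream of its TSS (chr11:94990388-94991146), with 67 fragments (51.9 to 85.1) and a fold of 35.5. It had the most fragments of the 22 TRBS, with an interval that overlaps those of the *Pfkfb3* and far *Pdk4* TRBS, and a lower fold than the *Pdp2* TRBS at the TSS. It lay at the promoter of *Ppp1r9b*, 303 bp upstream of the TSS of that gene. *Pdk1* (chr2:71873224-71903858, plus strand) had none within 100 kb, and the nearest was 435951 bp downstream with 14 fragments. Among the members of the pyruvate dehydrogenase switch, *Pdk4* and *Pdp2* had TRBS within 30 kb that were in the top 10% by both measures, and *Pdk1* and *Pdk2* did not, as called in this 1 library.

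*Ldhb* (chr6:142490249-142507957, minus strand) encodes the lactate dehydrogenase subunit of oxidative tissues. It was the most isolated of the 10 genes, and its nearest TRBS, of 26 fragments and a fold of 12.2, was 592330 bp upstream.

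Several further features were counted over the 13 TRBS. The genes were picked with earlier results known, so these counts are a description. Summits were in introns for 7, against 47.2% of the whole list, and intergenic for 3, against 38.2%. There were 2 in promoters (the 1000 bp before a TSS and the 100 bp after it), against 7.24%, and 1 in a coding exon, against 1.86%. A total of 5 lay upstream and 8 downstream of the TSS of the gene. Over all 5410 pairs of a protein-coding gene and a TRBS within 30 kb, 53.0% were downstream. The nearest protein-coding TSS was that of the gene itself for 11, against 53.9% of all such pairs, the exceptions being the pair in *Ybx2*. GC content had a median of 53.7% (range 44.3 to 60.3), against a median of 51.1% in the whole list. At most 15.5% of a TRBS was repeat sequence.

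Of the 13 TRBS, 4 held a DR4 with at most 2 mismatches, against 32.0% of all TRBS. When at most 1 mismatch was allowed the count was 0 of 13, against 7.23% of all TRBS. When 3 were allowed it was 9 of 13, against 72.5% of all. Windows of the same width 2 kb beyond the edges of the 13 held a DR4 with at most 2 mismatches in 3 of 24, against 5.43% for windows around all TRBS. Of the 5 TRBS with the most fragments among the 13, only the one 11667 bp upstream of *Pdk4* held an element with at most 2 mismatches. The other 3 such elements were in TRBS of 23 or 24 fragments.

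Other motifs were searched on both strands of each whole TRBS. An exact half-site (AGGTCA or GGGTCA) was found in 8 of 13, against 72.5% of all TRBS. A DR1, a direct repeat of AGGTCA with a spacer of 1 and at most 2 mismatches, was present in 2, against 14.9%. The E-box CACGTG, bound by factors such as USF and MYC, was found in 3, in *Hk2* at 18073 bp, in *Pfkfb3* at 18376 bp and at *Pdp2*, against 8.99%. A C/EBP palindrome (TTGC joined to GCAA, at most 1 mismatch) was found in 2, against 12.0%. The EBF palindrome (TCCC and GGGA with a spacer of 2, no mismatch) and the NF1 palindrome (TTGGC and GCCAA with a spacer of 5, at most 1 mismatch) were found in 0 of 13, against 4.54 and 2.94%. The half-site lies within the DR4 and DR1 consensus, so these counts overlap. A match is a description of letters and does not show which protein was bound.

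The question was then turned round, to ask how many DR4 elements near the 10 genes lay in a TRBS. Within 30 kb of a TSS there were 5 elements with at most 1 mismatch, and 0 of them lay in a TRBS. Within 100 kb there were 25, and 1 lay in a TRBS, that of *Pfkfb3* at 32.2 kb. Within 30 kb of any protein-coding TSS, 229 of 8304 such elements (2.76%) lay in a TRBS, and within 100 kb 356 of 14192 (2.51%). With 2 mismatches allowed, 4 of 82 elements within 30 kb (4.88%) and 8 of 245 within 100 kb (3.27%) lay in a TRBS. The same shares around all protein-coding TSS were 1.15% of 99261 and 0.976% of 175088. These values are a description, since the 10 genes were picked with earlier results known and 5 of them have TRBS within 30 kb.

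**Figure D3:**
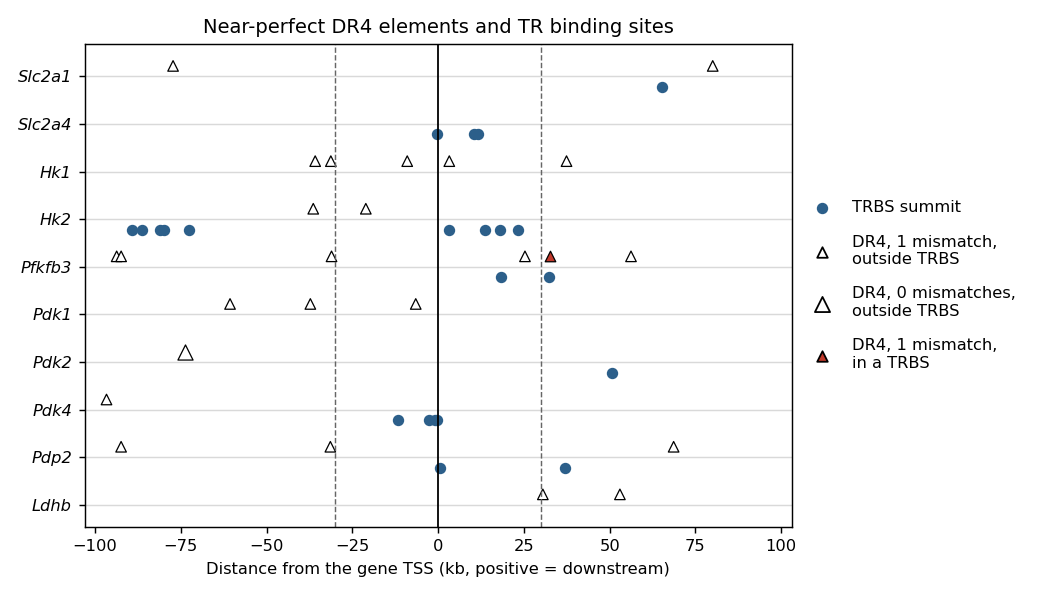
DR4 elements with at most 1 mismatch (triangles above each row) and TRBS summits (dots below each row) within 100 kb of the 10 genes, as distance from the TSS in kb. Of the 25 elements only 1, red in the *Pfkfb3* row, lies in a TRBS, and *Hk1*, with 5 elements, has no TRBS.

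Near these genes, some elements outside any TRBS were as close to the consensus as the best one inside. Examples are printed for comparison with those inside TRBS above, in the same notation.
Hk1, 3268 bp downstream, chr10:62376632-62376647, minus strand: AaGTCActttAGGTCA
Pdk1, 6509 bp upstream, chr2:71866707-71866722, plus strand: AGGTCAgccaAGGTtA
Pdk2, 73752 bp upstream, chr11:95115099-95115114, minus strand: AGGTCAaaaaAGGTCA
The last is an exact DR4, the only one within 100 kb of any of the 10 genes, and it was not in a TRBS. Within 100 kb of any protein-coding TSS, 52 of 728 exact elements (7.14%) were. *Hk1* had 2 near-perfect elements within 30 kb and *Ldhb* none, and neither gene had a TRBS within 100 kb. *Pdk4* had no near-perfect element within 30 kb and had 4 TRBS.

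The rest of the pathway was described by a list of 45 other genes: transporters, glycolytic enzymes, isoforms of PFKFB, subunits of pyruvate dehydrogenase, carriers of pyruvate and lactate, and regulators. Of these, 23 (51.1%) had a TRBS within 30 kb, against 16.7% of all protein-coding genes. More than 1 was found for 10 genes, against 4.55% of all, and 33 had one within 100 kb, against 38.3% of all. The TSS nearest to at least 1 of these TRBS was that of the gene itself for 17 of the 23. Counted this way, 9.88% of all protein-coding genes had a TRBS within 30 kb, in place of 16.7%. No TRBS was shared with the 10 genes. The median over their 40 distinct TRBS was 22.5 fragments. Of the 40, 7 held a DR4 with at most 2 mismatches, against 32.0% of all TRBS. The list was drawn up with earlier results known, so the share is not evidence about the pathway.

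**Figure D4:**
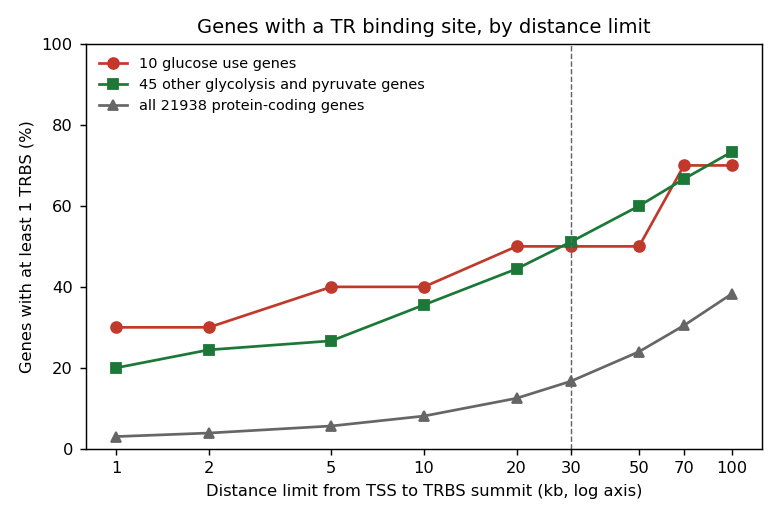
Percent of genes with at least 1 TRBS (y axis) as the allowed distance from the TSS to the summit grows from 1 to 100 kb (x axis, log scale), for the 10 genes (red), the 45 other pathway genes (green) and all 21938 protein-coding genes (grey). At 1 kb the values are 30, 20 and 3.02%, and at 100 kb they are 70, 73.3 and 38.3%.

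In the lower part of glycolysis, *Eno1* (enolase) had the strongest TRBS, 5743 bp upstream of its start, with 71 fragments (55.5 to 89.6) and a DR4 with 1 mismatch, at a fold of 50.4. *Pgk1*, phosphoglycerate kinase, had 52 fragments (38.8 to 68.2) at its promoter, 147 bp upstream. *Pkm*, the pyruvate kinase of most tissues, had 3 TRBS, the strongest at its promoter with 35 fragments (24.4 to 48.7). *Tpi1*, *Gapdh*, *Pgam1* and *Pklr* had 21 to 23 fragments each, although the nearest TSS was that of another gene for *Tpi1*, *Pgam1* and *Pklr*. The middle of the pathway, from *Gpi1* to *Pfkl* and *Pfkp*, had 10 to 16 fragments at 1 TRBS per gene, and the fructose bisphosphatase genes *Fbp1* and *Fbp2*, which act in the opposite direction, shared a TRBS of 8. Among the other PFKFB isoforms, *Pfkfb1* and *Pfkfb4* had 34 and 35 fragments, below the interval of *Pfkfb3*, and *Pfkfb2* had no TRBS within 30 kb.

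Around pyruvate, *Pcx* (pyruvate carboxylase) was within 30 kb of the TRBS with the most fragments among those of the 45 genes, 123 (102.2 to 146.8), but this lay 17358 bp upstream of it and nearer to another gene, *2010003K11Rik*. *Pdhb*, a subunit of pyruvate dehydrogenase, had 59 fragments (44.9 to 76.1) at its promoter. *Dlat*, the acetyltransferase of the same complex, had 4 TRBS, the strongest at its promoter with 48 fragments (35.4 to 63.6). The subunit gene *Pdha1* had 18 fragments and the mitochondrial pyruvate carrier *Mpc1* had 31. For lactate, *Ldha* had 14 fragments and the monocarboxylate transporter *Slc16a1* had 25. Among regulators, *Mlxipl*, which encodes ChREBP, had 3 TRBS with up to 52 fragments (38.8 to 68.2). *Txnip*, an inhibitor of glucose uptake, had 4 with up to 33 (22.7 to 46.3). For *Pfkfb1*, *Mpc1* and *Txnip*, the strongest TRBS was also closer to the TSS of another gene.

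**Figure D5:**
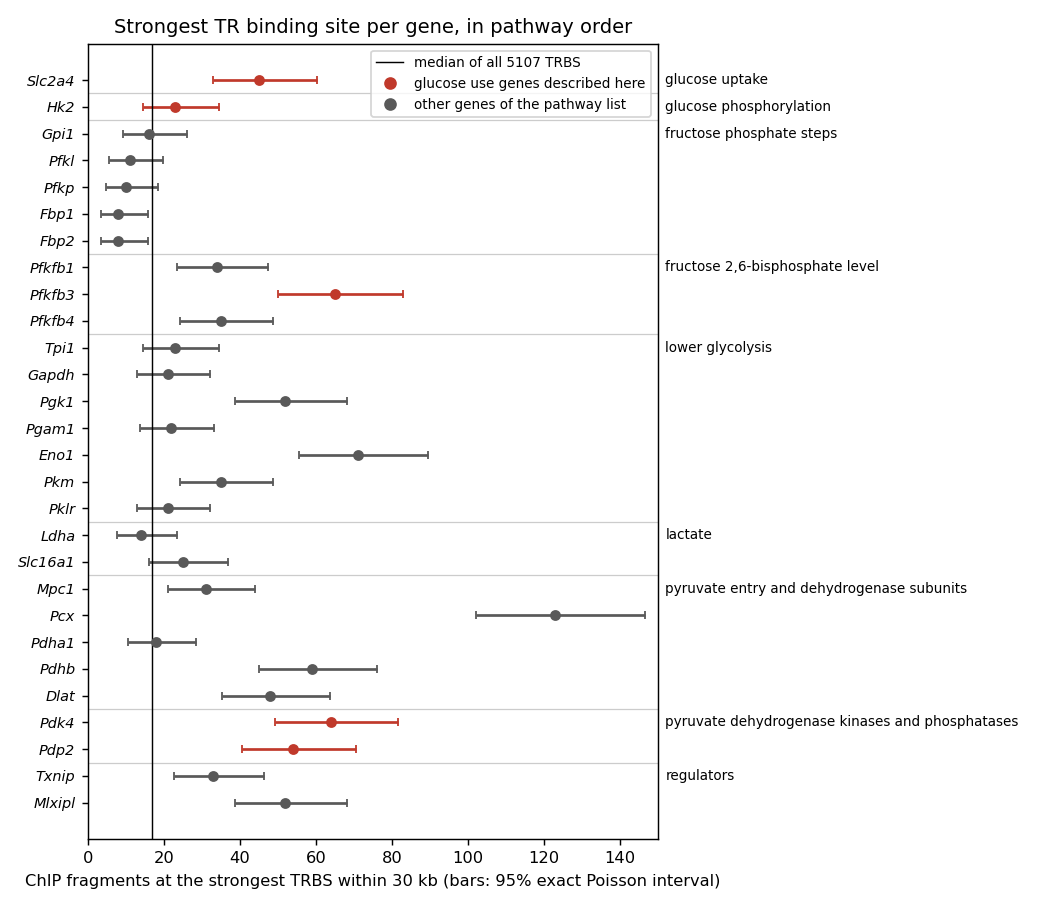
ChIP fragments (x axis) at the strongest TRBS within 30 kb of each gene that had one, in pathway order from glucose uptake to regulators, with exact 95% Poisson intervals; red marks the 5 of the 10 genes with such a TRBS, grey the other pathway genes, and the vertical line is the median of all TRBS, 17. *Pfkfb3*, *Pdk4*, *Pdp2* and *Slc2a4* stand with *Pcx*, *Eno1*, *Pgk1*, *Pdhb*, *Dlat* and *Mlxipl* above 40 fragments, and *Hk2* is near the median.

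The other 22 genes of the list had no TRBS within 30 kb. They include *Slc2a3*, *Hk3* and *Hkdc1* among transporters and hexokinases, *Pfkm* and *Pfkfb2*, all 3 aldolase genes, *Eno2* and *Eno3*, and *Slc16a3*, the transporter that exports lactate. They also include *Pdk3* and *Pdp1*, the remaining kinase and phosphatase of pyruvate dehydrogenase. Of its 4 kinases, *Pdk4* alone thus had a TRBS within 30 kb, and of its 2 catalytic phosphatase subunits *Pdp2* alone, as called in this library. Across all protein-coding genes, 16.7% had a TRBS at this distance. Within 100 kb, *Pdk2* and *Pdp1* each had 1 as well, and *Pdk1* and *Pdk3* had none. With so few genes, picked with earlier results known, this is a description of single genes.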

How the data were processed

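Brown adipose tissue of mice with tagged TRα1 gave 1 ChIP and 1 input library. Per the submitters' processing notes, the authors aligned reads to mm10 (GRCm38) with Bowtie2 2.3.2.2 and called peaks with MACS2 2.1.1.20160309.6. The deposited list of 5107 peaks gives for each a position, a score (10 times the −log10 q-value), a fold over local input (a ratio with a pseudocount of 1 on both sides) and a −log10 p-value, all made by the authors. The study's methods drop peaks with a score under 60, but the deposited list was not cut there, and all peaks were kept.

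The whole number of ChIP fragments at each summit, and the background, were solved from the fold and the Poisson p-value. This gave a −log10 p that matched the deposited one to 0.0005 for 5085 peaks, with a single solution for 5047. Library totals were not used here, so depth is known only through these fragments. Distances ran from the summit to the 5′ end of each protein-coding gene of GENCODE M21 on GRCm38. DR4 elements and other motifs were searched on both strands of that genome. Scripts used Python 3.11.15 with numpy 2.4.6, scipy 1.17.1, pandas 2.3.3 and matplotlib 3.10.9, and were tested on simulated data.

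Named were all 10 genes, pathway genes with a TRBS within 30 kb, for TRBS within 30 kb of the 10 genes the gene with the nearest TSS where it was another one, and, from 30 to 100 kb, the strongest and the nearest TRBS of each gene. Pathway genes without a TRBS, and the neighbours of far TRBS, were named after their values were seen. The genes and lists were chosen with earlier results of these data known. No comparison between conditions and no test was possible with 1 library of each kind. Alternatives were other score limits, distances, start sites, peak merging and mismatch limits.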

Additional observations from a re-analysis of the deposited data

How the results depend on the processing

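Of 110 recomputed counts, 98 stayed within 1.5 times the reported one, of which 36 were 0 under both settings, and 12 moved further. The count of 5 genes with a TRBS within 30 kb held under every alternative except a limit of 10 kb, which gave 4. The share of all genes with a TRBS moved from 16.7% to 8.09% at 10 kb, 11.3% with a score of at least 100, 14.1% with at least 60, 19.6% with any transcript start and 9.88% with the nearest TSS. The limit of 10 kb left 6 TRBS in place of 13, and 1 gene with more than 1 in place of 3. The share of all genes with more than 1 was 1.29% at 10 kb, in place of 4.55%. A score of at least 100 left 14 of the 22 TRBS within 100 kb, and 9 of the 13 within 30 kb. A score of at least 60 left 19 and 13, and the 3 lost were all upstream of *Hk2*. The number of TRBS within 30 kb that hold a DR4, reported as 4, was 0 with at most 1 mismatch and 9 with at most 3. DR4 elements within 30 kb that lie in a TRBS numbered 0 with at most 1 mismatch and 4 with at most 2. Counting a TRBS only for the gene with the nearest TSS, an alternative added after seeing the data, gave 11 within 30 kb and 15 within 100 kb, again for 5 genes. For single genes, *Slc2a4* fell from 3 TRBS to 1 with a score of at least 100, with a limit of 10 kb and with the nearest TSS. *Pfkfb3* rose from 1 to 2 when any transcript start counted and fell to 0 at 10 kb, and *Hk2* fell from 4 to 1 at 10 kb. A second ChIP library, an untagged control and the total reads were not analysed here. Replicate spread and the level of occupancy that escaped detection are therefore unknown. The fewest fragments called were 5, at the lowest background, and more are needed where the background is higher.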
